A study of Mus musculus with 12 samples.

Results

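The 36 genes described here act from G2 to the end of cell division: the cyclins and kinase that start mitosis, the mitotic kinases, the spindle checkpoint, the chromosomal passenger complex, kinetochore proteins, chromosome proteins, spindle proteins and the machinery of cytokinesis. They were taken by name from the 51734 gene symbols of the deposited files, and all 36 were found. Their RNA was measured in 12 libraries of polyadenylated RNA of mouse thymus. Tumors 1 to 9 are thymic T cell leukemias (T-ALL) of mice with tetracycline-inducible expression of the interleukin-7 receptor alpha chain (IL-7Rα, gene Il7r), and their labels say that Dox induced it. Controls 1 to 3 are thymus of healthy mice. All 12 libraries have the strain label F5. The labels used here give neither the promoter that drives the construct, nor whether the controls carried it or received Dox, nor ages. They also do not say whether each library came from its own animal, so a p-value covers the spread between libraries alone, and part of that may be technical.

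A dividing cell copies its DNA in S phase, prepares in G2, and enters mitosis when cyclin B binds and activates the kinase Cdk1. Spindle microtubules then capture each chromosome at its kinetochore, the checkpoint holds back the anaphase-promoting complex until every kinetochore is attached, and the complex then marks cyclin B and securin for destruction. Most of these genes are transcribed late in the cell cycle. The MuvB complex is part of DREAM in resting cells and works with B-MYB and FOXM1 in dividing cells. It contacts a promoter element called the cell cycle genes homology region (CHR), and the factor NF-Y binds CCAAT boxes beside that element. In the thymus, rapid division is a property of immature thymocytes, and T cell leukemias arise from such cells.

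These promoter elements are printed for 4 members whose promoters hold both and for 1 that holds neither, since the promoter is a feature that the choice of the genes did not use. RefSeq promoter windows of build GRCm38.p6, from 250 bases before the annotated start to 50 after it, were matched by symbol for 31 of the 36 members. Not matched were Ccna2, Aurkb, Incenp, Tpx2 and Kif20a. Each line below gives the 250 bases before the start, 5′ to 3′ on the gene's strand, and capitals mark CHR (TTTGAA) and CCAAT or its reverse complement ATTGG. Cdk1 lies at chr10:69352913-69353162, Ccnb2 (cyclin B2) at chr9:70421555-70421804, Cdc20 (the activator of the anaphase-promoting complex) at chr4:118437344-118437593 and Mki67 (the Ki-67 protein) at chr7:135716380-135716629, all on the minus strand. Mad2l1 (the checkpoint protein Mad2), which had no match, lies at chr6:66534971-66535220 on the plus strand. In the GENCODE M21 annotation this gene starts at 66535390, beyond this window, so the bases just before that start are not in it.
Cdk1: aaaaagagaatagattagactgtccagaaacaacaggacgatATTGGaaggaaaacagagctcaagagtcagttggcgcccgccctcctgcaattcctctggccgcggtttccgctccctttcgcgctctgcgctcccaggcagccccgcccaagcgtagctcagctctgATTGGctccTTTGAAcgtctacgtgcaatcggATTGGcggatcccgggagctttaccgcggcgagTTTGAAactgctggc
Ccnb2: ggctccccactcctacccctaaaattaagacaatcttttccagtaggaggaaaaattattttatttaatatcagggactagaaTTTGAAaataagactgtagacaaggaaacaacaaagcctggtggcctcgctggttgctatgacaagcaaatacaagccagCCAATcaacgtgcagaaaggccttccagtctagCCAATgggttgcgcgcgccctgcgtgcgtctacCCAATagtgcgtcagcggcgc
Cdc20: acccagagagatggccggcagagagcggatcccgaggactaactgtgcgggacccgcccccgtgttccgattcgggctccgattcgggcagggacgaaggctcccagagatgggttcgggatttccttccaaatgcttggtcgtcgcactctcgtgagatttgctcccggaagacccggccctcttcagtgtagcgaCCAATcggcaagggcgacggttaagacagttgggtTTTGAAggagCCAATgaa
Mki67: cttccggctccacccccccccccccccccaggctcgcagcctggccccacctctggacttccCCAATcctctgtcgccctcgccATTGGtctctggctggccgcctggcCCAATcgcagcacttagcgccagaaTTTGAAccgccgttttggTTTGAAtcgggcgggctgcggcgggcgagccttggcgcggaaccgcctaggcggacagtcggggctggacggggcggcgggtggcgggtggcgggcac
Mad2l1: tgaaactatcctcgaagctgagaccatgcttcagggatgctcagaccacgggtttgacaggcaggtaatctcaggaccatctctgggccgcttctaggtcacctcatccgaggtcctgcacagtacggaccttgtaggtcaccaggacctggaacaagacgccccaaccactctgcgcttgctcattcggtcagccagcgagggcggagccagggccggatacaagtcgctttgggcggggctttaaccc

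CHR was searched as TTTGAA or else TTCGAA. The second element was searched as CCAAT. An E2F element was searched as TTTCCCGC, as TTTGGCGC and as TTTCGCGC. Each search covered both strands of the 300-base window. A gene with several windows counted where any of them held the motif. The TTCGAA form, which reads alike on both strands, counted once, and matches of different motifs counted also where they overlapped. CHR stood in 25 of 31 member windows (80.6%), against 21.7% of the windows of 27025 genes. CCAAT stood in 23 of 31 (74.2%), against 41.1% of all genes. Both together stood in 21 of 31 (67.7%), against 8.61%. An E2F element stood in 2 of 31 (6.45%), Cdk1 and Kif15, against 2.12%. The members with neither CHR nor CCAAT were Mad2l1, Birc5, Nuf2 and Nusap1 (12.9%, against 46.9% of all genes), which says only that these letters are not in these windows. Ect2 and Prc1 each have a pair of overlapping windows, and positions were therefore read from 1 window per gene. There the 35 CHR matches had their median at -5 bases from the annotated start and the 58 CCAAT matches at -78.5 bases. Such a match is a description of the letters, not a measured binding site.

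**Figure D1:**
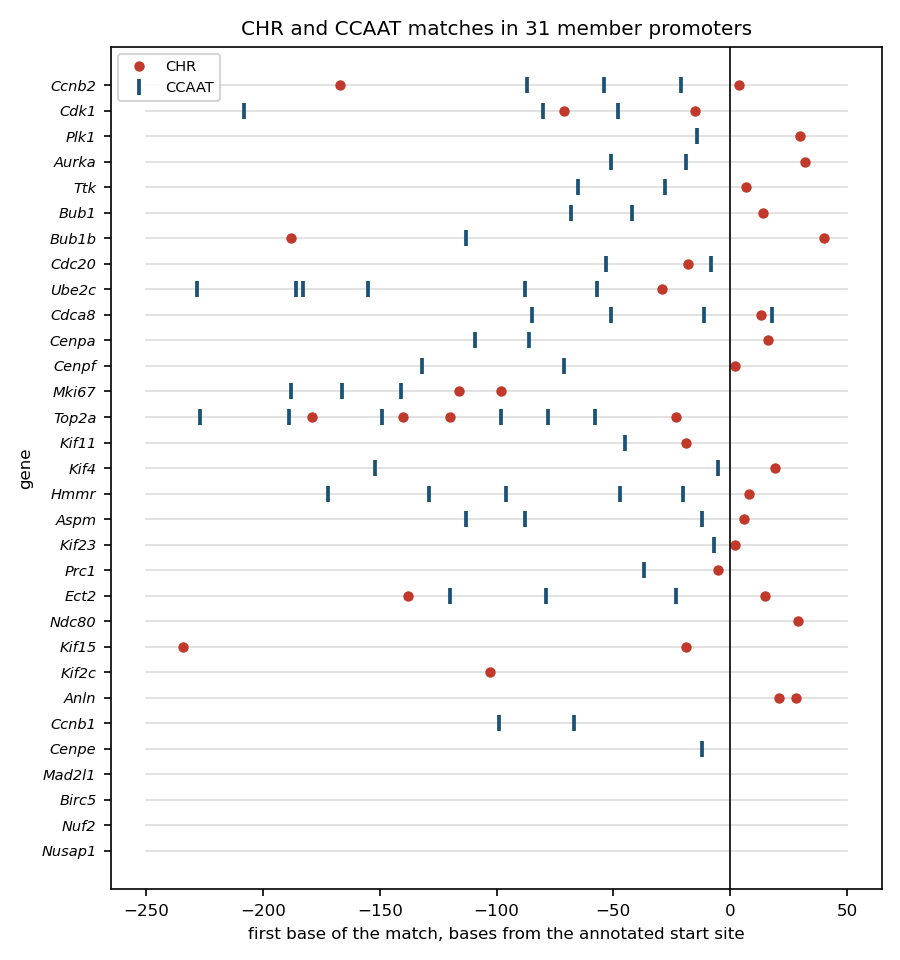
Position of each CHR match (red dots) and CCAAT match (blue bars) in the RefSeq promoter windows of 31 members, in bases from the annotated start site on the horizontal axis, 1 gene per line. CHR matches had their median at -5 bases and CCAAT matches at -78.5 bases, and the bottom 4 lines, Mad2l1, Birc5, Nuf2 and Nusap1, held neither.

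Library totals were 8133152 to 12019924 estimated counts in the controls and 11617724 to 34769946 in the tumors. Tumors 1 to 6, which the labels do not separate from the other tumors, stood apart from all other libraries in composition: mitochondrial genes took 31.6% to 69.3% of their counts, against 0.0948% to 11.1% in the controls and tumors 7 to 9. Counts as CPM, a gene's counts scaled to a fixed library total, are therefore given after scaling by trimmed mean of M-values (TMM) factors, which ran from 2.52 to 3.16 in the controls, from 0.283 to 0.851 in tumors 1 to 6 and from 1.01 to 2.58 in tumors 7 to 9. Il7r itself stood at 2.51, 3.20 and 3.04 CPM in controls 1 to 3, at 72.7, 308, 513, 77.9, 97.5 and 33.3 CPM in tumors 1 to 6 and at 5.03, 5.50 and 5.62 CPM in tumors 7 to 9, so on this scaling every tumor lay above every control. In tumors 7 to 9 its log2 fold change of 0.87 did not pass (adjusted p = 0.266 by edgeR's quasi-likelihood test). The thymus label was checked on 20 T cell genes: in all 3 controls 16 of them lay under the 95th percentile of the 1449 olfactory and vomeronasal receptor genes of the same library, which thymus is not known to express. Of these, 98.5% to 99.4% had a count in the controls and tumors 7 to 9, against 45.7% to 92.9% in tumors 1 to 6. Il7r too lay under that 95th percentile in all controls and in all of tumors 7 to 9. Degraded RNA or genomic DNA in the controls and tumors 7 to 9 was not tested for, and low levels of the members there cannot be told apart from such background. Cd3e, a chain of the T cell receptor complex, stood at 4.77, 3.39 and 2.81 CPM in controls 1 to 3. Each result is therefore given for all 9 tumors, for tumors 1 to 6 and for tumors 7 to 9, against the same 3 controls, so the 3 comparisons are not independent. Fewer cells of a type and less RNA per cell cannot be told apart in such bulk libraries.

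The members as a set took 0.124% to 0.147% of the counts on protein-coding nuclear genes in the controls. The same share was 0.822, 0.908, 1.11, 0.917, 1.96 and 1.28% in tumors 1 to 6, and 0.0689, 0.0905 and 0.102% in tumors 7 to 9. Tumors 1 to 6 thus lay above all controls on this share, which does not depend on the TMM factors, and tumors 7 to 9 lay below all controls. In CPM per kilobase, which allows genes of different length to be compared, all 36 members lay above the 95th percentile of the receptor genes in each of tumors 1 to 6. In the controls 3, 4 and 3 members did so, and in tumors 7, 8 and 9 it was 3, 1 and 2. In the controls these were Top2a, Kif15 and Kif23 in each library, with Hmmr added in control 2. A gene with many annotated transcripts sums more transcripts than a receptor gene does, so this comparison with receptor genes places levels only roughly.

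In tumors 1 to 6 the most abundant members per length were Mki67, whose protein coats mitotic chromosomes, at 229 ± 106 CPM per kilobase (mean ± SD, n = 6), and Top2a, the topoisomerase that untangles sister DNA, at 172 ± 68.5. Next came the spindle motor gene Kif15 at 113 ± 58.0, the midzone motor gene Kif23 at 98.6 ± 41.0 and the checkpoint gene Bub1b at 96.9 ± 50.03 CPM per kilobase. Neighbours in this order did not differ beyond their spread over the 6 tumors. The lowest were Ube2c at 10.2 ± 3.17, Ttk at 10.5 ± 4.56, Kif2c at 15.5 ± 4.51, Aurka at 15.7 ± 5.79 and Aspm at 16.6 ± 9.89 CPM per kilobase. Across the 36 genes this level had a Spearman rho of 0.45 with the length of the longest coding transcript, as a description across genes, which are not independent replicates.

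Against the controls, tumors 1 to 6 were higher for 35 of the 36 members and lower for 0 by edgeR's quasi-likelihood test with Benjamini-Hochberg adjustment over 38522 genes, where 19.6% of all genes tested were higher and 20.3% lower. The median log2 fold change of the members was 3.34, against -1.29 over all genes tested and 3.83 over 79 genes for proteins of the cytosolic ribosome, of which 77 were higher. Every one of tumors 1 to 6 lay above every control for 35 members, against 19.4% of all genes, and below every control for 0, against 39.1%, on TMM scaling of these 9 libraries. The direction depended on the scaling. With library totals alone 13 members were higher and 1 lower, and 7 of 36 log2 fold changes lay below 0. Of all 38522 genes, 4.29% were higher and 28807 lower with library totals. By limma on log2(TPM + 1), where TPM scales transcripts by length and library, 4 were higher and 3 lower, and 20 lay below 0. On that scale 1.52% of all genes were higher and 32772 lower. Over all genes the median moved with the scaling as well, to -3.70 with library totals and -1.40 on TPM, and relative to it the members' median was 4.63 by TMM, 4.91 with library totals and 1.35 on TPM. Over the 8 settings of scaling, filter, tool and block, 15 members had a log2 fold change above 0 in each, and Mki67, Incenp, Kif11 and Nusap1 passed the test in each. Tumors 1 to 6 and the controls also differ in library composition, and composition and leukemia cannot be told apart in this comparison.

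**Figure D2:**
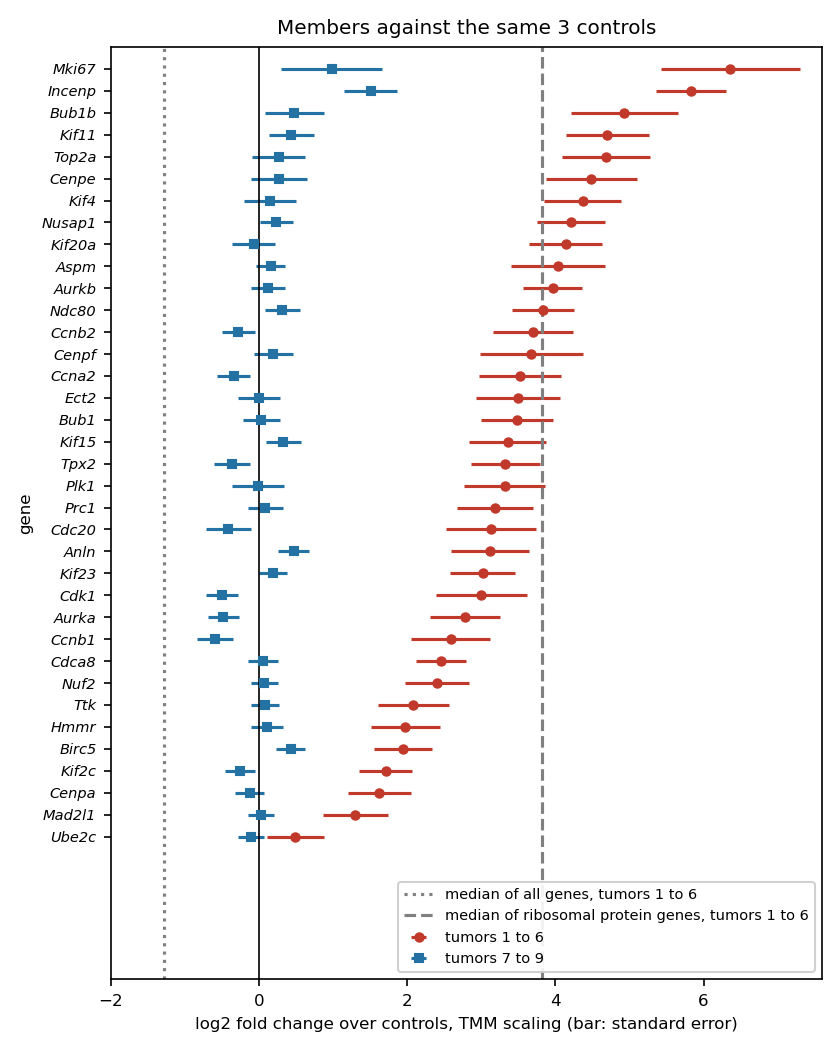
Log2 fold change over the same 3 controls (horizontal axis, TMM scaling, bars are standard errors) of the 36 members, in tumors 1 to 6 (red circles) and in tumors 7 to 9 (blue squares). In tumors 1 to 6 members ran from 0.49 for Ube2c to 6.36 for Mki67 around the ribosomal protein genes' median of 3.83 (dashed line) and above the all-gene median of -1.29 (dotted line), though 7 of them turned below 0 with library totals and 20 on TPM. Tumors 7 to 9 lay between -0.59 and 1.504, and 35 of 36 lay below 0 with library totals, as on TPM.

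Among the genes that start mitosis, Cdk1, the kinase itself, stood at 4.57, 5.46 and 4.25 CPM in controls 1 to 3 and at 2.89, 2.96 and 4.26 CPM in tumors 7 to 9. Cdk1 ranged from 19.6 to 104 CPM in tumors 1 to 6, with a median of 34.8. By TMM all of tumors 1 to 6 lay above all controls, and tumor 5 was the highest, with the next tumor at 44.9 CPM (log2 fold change 3.00, SE 0.61, adjusted p = 0.00202 by edgeR). Cdk1 no longer passed with library totals (log2 fold change 0.88, adjusted p = 0.246 by edgeR) or on TPM (0.09, adjusted p = 0.902 by limma). Its partner Ccnb1, cyclin B1, stood at 6.10, 8.36 and 7.93 CPM in controls 1 to 3 and at 6.50, 3.99 and 4.55 CPM in tumors 7 to 9. Ccnb1 ranged from 21.2 to 96.1 CPM in tumors 1 to 6, with a median of 44.5. Tumor 4 was the lowest of tumors 1 to 6 and still lay above every control (log2 fold change 2.59, SE 0.53, adjusted p = 0.00208 by edgeR, with the sign turned on TPM to -0.68). Ccnb2, cyclin B2, stood at 1.89, 2.00 and 2.02 CPM in controls 1 to 3 and at 1.62, 1.82 and 1.48 CPM in tumors 7 to 9. Ccnb2 ranged from 14.7 to 52.8 CPM in tumors 1 to 6, with a median of 28.8. Its groups did not overlap either, and tumors 7 to 9 lay below every control (log2 fold change 3.70, SE 0.54, adjusted p = 0.000145 for tumors 1 to 6). Ccna2, cyclin A2, which serves S phase and G2, went from 3.14 to 4.61 CPM in the controls to 32.4 to 106 CPM in tumors 1 to 6, with a median of 41.7, with its sign turned to -0.0835 on TPM, and tumor 5 was again the highest. Its exons overlap those of Exosc9 on the other strand.

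The mitotic kinases were among the less abundant members. Plk1, the polo-like kinase of mitotic entry, stood at 1.60, 2.11 and 1.48 CPM in controls 1 to 3 and at 1.35, 2.75 and 1.14 CPM in tumors 7 to 9. Plk1 ranged from 9.23 to 33.6 CPM in tumors 1 to 6, with a median of 21.2. Tumor 6, not tumor 5, was its highest, and by TMM tumors 1 to 6 lay above the other 6 libraries (log2 fold change 3.31, SE 0.55, adjusted p = 0.000397 by edgeR). Plk1 no longer passed with library totals (log2 fold change 1.21, adjusted p = 0.113 by edgeR) or on TPM (0.76, adjusted p = 0.174 by limma). Aurka, the Aurora kinase of centrosomes and spindle poles, ran from 9.54 to 34.6 CPM in tumors 1 to 6, with a median of 23.7, against 2.72, 2.90 and 2.51 in the controls and 1.85, 1.82 and 2.18 in tumors 7 to 9. Ttk, which starts checkpoint signaling at kinetochores, had the smallest change of this group, from 4.63 to 5.69 CPM in the controls to 17.1 to 42.6 CPM in tumors 1 to 6, with a median of 19.1 (log2 fold change 2.08, SE 0.48, adjusted p = 0.0045 by edgeR). The sign of Ttk turned to -0.04 with library totals and -1.05 on TPM, and that of Aurka to -0.73 on TPM. Bub1, a checkpoint kinase, rose with a log2 fold change of 3.48 (SE 0.49) by TMM, with its sign turned to -0.43 on TPM.

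The genes of the checkpoint and the anaphase-promoting complex included the smallest log2 fold change in tumors 1 to 6, that of Ube2c, and the widest spread over these tumors, that of Bub1b. Bub1b, which encodes the checkpoint protein BubR1, stood at 3.22, 5.35 and 5.06 CPM in controls 1 to 3 and at 10.6, 5.12 and 3.49 CPM in tumors 7 to 9. Bub1b ranged from 52.8 to 331 CPM in tumors 1 to 6, with a median of 131. It had the widest spread of all members over tumors 1 to 6, with 52.8, 87.2, 264, 116, 331 and 145 CPM in order, and tumors 3 and 5 were the high ones (log2 fold change 4.93, SE 0.72, adjusted p = 0.000155 by edgeR). Mad2l1, which with BubR1 holds Cdc20 inactive, stood at 15.9, 19.3 and 17.2 CPM in controls 1 to 3 and at 17.3, 18.1 and 18.5 CPM in tumors 7 to 9. Mad2l1 ranged from 33.8 to 98.8 CPM in tumors 1 to 6, with a median of 42.6. The groups did not overlap for Mad2l1 (log2 fold change 1.30, SE 0.44, adjusted p = 0.0324 by edgeR). That call was lost in edgeR with the size factors of DESeq2 (adjusted p = 0.0728), among protein-coding genes alone (adjusted p = 0.304) and without control 1, 2 or 3 (adjusted p = 0.116, 0.0831 and 0.106), and the sign turned to -0.91 with library totals and -0.26 on TPM. Cdc20 rose from 1.51 to 3.17 CPM in the controls to 10.9 to 49.3 CPM in tumors 1 to 6, with a median of 18.1, with tumor 6 the highest, and its sign turned to -0.25 on TPM. Ube2c, the ubiquitin-conjugating enzyme that works with the complex, was the member that did not pass, at 4.96, 5.08 and 5.24 CPM in controls 1 to 3 and at 5.02, 4.599 and 4.59 CPM in tumors 7 to 9. Ube2c ranged from 5.73 to 11.9 CPM in tumors 1 to 6, with a median of 9.02. Tumors 3 and 4, at 5.73 and 5.79 CPM, lay next to the controls (log2 fold change 0.49, SE 0.39, adjusted p = 0.283 by edgeR), and its sign turned to -1.70 with library totals, -0.33 among protein-coding genes and -2.03 on TPM.

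**Figure D3:**
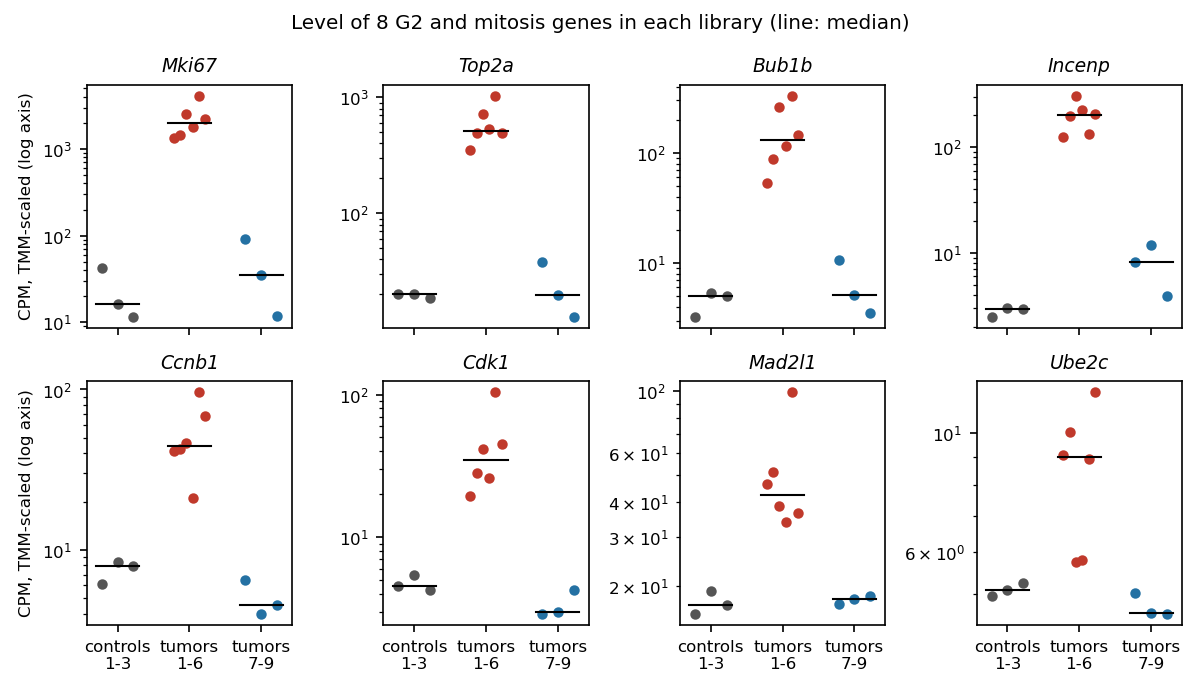
TMM-scaled CPM (log axis) of 8 members in each library, with controls 1 to 3 in grey, tumors 1 to 6 in red and tumors 7 to 9 in blue, and a line at each median. On this scaling Mki67 ran from 11.4 to 42.8 CPM in the controls and from 1345 to 4138 in tumors 1 to 6, while Ube2c ran from 4.96 to 5.24 and from 5.73 to 11.9, with its direction turned by library totals and by TPM.

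In the chromosomal passenger complex, which corrects wrong attachments, the scaffold gene Incenp stood at 2.45, 2.98 and 2.91 CPM in controls 1 to 3 and at 8.21, 11.9 and 3.89 CPM in tumors 7 to 9. Incenp ranged from 125 to 309 CPM in tumors 1 to 6, with a median of 201. It had the largest log2 fold change after Mki67 (log2 fold change 5.83, SE 0.47, adjusted p = 1.81e-05 by edgeR), and by TMM all of tumors 1 to 9 lay above all controls. Incenp has 1 annotated transcript in the files and lies at chr19:9872296-9899551 in GENCODE M21 on GRCm38. The kinase gene Aurkb stood at 1.82, 2.80 and 2.23 CPM in controls 1 to 3 and at 2.54, 2.54 and 2.45 CPM in tumors 7 to 9. Aurkb ranged from 31.3 to 54.9 CPM in tumors 1 to 6, with a median of 43.5. It varied little over tumors 1 to 6, where the highest was 2.03 times the lowest. Birc5, the survivin gene, stood at 13.8, 9.97 and 9.71 CPM in controls 1 to 3 and at 16.2, 15.2 and 13.9 CPM in tumors 7 to 9. Birc5 ranged from 31.2 to 77.5 CPM in tumors 1 to 6, with a median of 50.2. By TMM all tumors, also 7 to 9, lay above the controls. With library totals tumor 7, at 280 of 17158731 counts, lay below control 1, at 416 of 12019924. The log2 fold change of Birc5 was among the smaller ones in tumors 1 to 6 (log2 fold change 1.95, SE 0.39, adjusted p = 0.00182 by edgeR, turned to -0.25 with library totals). Cdca8, which encodes borealin, had a log2 fold change of 2.46 (SE 0.34) and the smallest spread of all members over tumors 1 to 6, from 32.4 to 50.2 CPM in tumors 1 to 6, with a median of 38.0. Cdca8 is 1 of 10 members whose exons overlap those of another annotated gene, and values of such overlapping genes are uncertain.

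At centromere and kinetochore, Cenpf, a protein of the outer kinetochore, stood at 26.2, 21.4 and 19.1 CPM in controls 1 to 3 and at 35.8, 20.97 and 19.7 CPM in tumors 7 to 9. Cenpf ranged from 155 to 802 CPM in tumors 1 to 6, with a median of 266. Tumor 5 alone reached 802 CPM and the next tumor 305 (log2 fold change 3.67, SE 0.69, adjusted p = 0.00109 by edgeR, turned to -0.40 on TPM). Cenpe, a kinetochore motor, went from 8.18 to 14.3 CPM in the controls to 149 to 539.7 CPM in tumors 1 to 6, with a median of 222. Ndc80 and Nuf2, which together form the arm that grips microtubules, ran from 32.5 to 66.0 CPM in tumors 1 to 6, with a median of 42.4, for Ndc80. For Nuf2 the range was 37.0 to 95.3 CPM in tumors 1 to 6, with a median of 48.7. Their controls lay at 2.53, 2.66 and 2.55 CPM for Ndc80 and at 9.15, 8.89 and 8.35 CPM for Nuf2, so that the log2 fold change was 3.83 (SE 0.42) for Ndc80 and 2.40 (SE 0.43) for Nuf2. Cenpa, the histone of centromeres, had the smallest change of these 5 genes (log2 fold change 1.62, SE 0.43, adjusted p = 0.00935 by edgeR), which was lost among protein-coding genes alone (adjusted p = 0.0813) and without control 3 (adjusted p = 0.0521), and turned to -0.50 with library totals and -0.75 on TPM. On TPM the sign of Cenpe turned to -0.03 and that of Nuf2 to -0.22.

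The chromosome proteins were the largest in level. Mki67, at chr7:135689784-135716361, stood at 42.8, 16.2 and 11.4 CPM in controls 1 to 3. In tumors 1 to 6 it was 1345, 1458, 2514, 1792, 4138 and 2206 CPM, and in tumors 7 to 9 90.6, 34.997 and 11.7 CPM. All of tumors 1 to 6 were far above the rest, control 1 and tumor 7 were the highest of the other libraries, and tumors 8 and 9 lay within the range of the controls (log2 fold change 6.36, SE 0.93, adjusted p = 0.00016 by edgeR for tumors 1 to 6). Top2a stood at 20.2, 20.1 and 18.5 CPM in controls 1 to 3, at 354, 497, 724, 529, 1036 and 490.2 CPM in tumors 1 to 6 and at 38.3, 19.7 and 12.7 CPM in tumors 7 to 9. Tumors 1 to 6 did not overlap the rest, while tumors 7 to 9 lay on both sides of the controls (log2 fold change 4.69, SE 0.59, adjusted p = 5.64e-05 by edgeR for tumors 1 to 6).

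All 8 spindle genes were higher in tumors 1 to 6 by TMM, with a median log2 fold change of 3.70, though the signs of Kif2c and Hmmr turned with library totals and those of Kif2c, Tpx2, Hmmr and Aspm on TPM. Kif11, the motor that pushes the poles apart, stood at 7.30, 5.45 and 5.18 CPM in controls 1 to 3 and at 11.8, 7.28 and 5.34 CPM in tumors 7 to 9. Kif11 ranged from 123 to 339 CPM in tumors 1 to 6, with a median of 160.0 (log2 fold change 4.70, SE 0.56, adjusted p = 4.11e-05 by edgeR). Aspm, a protein of spindle poles, stood at 7.13, 8.17 and 8.11 CPM in controls 1 to 3 and at 10.2, 7.45 and 8.62 CPM in tumors 7 to 9. Aspm ranged from 85.1 to 313 CPM in tumors 1 to 6, with a median of 101, and its tumors 5 and 6 were the high ones. Nusap1, which bundles spindle microtubules, ran from 3.80 to 4.21 CPM in the controls to 61.9 to 143 CPM in tumors 1 to 6, with a median of 81.9. Kif4, a motor on chromosome arms, had a log2 fold change of 4.37, Kif15 of 3.36 and Tpx2, the activator of Aurka, of 3.32. The smallest were Hmmr, a spindle protein also known as a hyaluronan receptor, at 1.98 (SE 0.47) and Kif2c, which shortens microtubules, at 1.71 (SE 0.36). Hmmr stood at 20.7, 25.3 and 24.4 CPM in controls 1 to 3.

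The 5 genes of midzone and cytokinesis all rose in tumors 1 to 6 by TMM, by log2 fold changes of 3.02 to 4.14, and with library totals all 5 stayed above 0, while on TPM Kif20a alone did. With library totals Kif23, Prc1, Anln and Ect2 no longer passed (adjusted p = 0.179, 0.135, 0.163 and 0.0699 by edgeR). On TPM Kif20a did not pass (adjusted p = 0.13 by limma). Kif20a, a midzone motor, stood at 3.03, 4.34 and 3.46 CPM in controls 1 to 3 and at 4.92, 3.19 and 2.39 CPM in tumors 7 to 9. Kif20a ranged from 54.4 to 138 CPM in tumors 1 to 6, with a median of 62.9. Its groups did not overlap, and tumors 7 to 9 lay on both sides of the controls (log2 fold change 4.14, SE 0.49, adjusted p = 4.11e-05 by edgeR for tumors 1 to 6). Prc1, which bundles midzone microtubules, ran from 62.0 to 204 CPM in tumors 1 to 6, with a median of 108, Anln (anillin, of the contractile ring) from 48.4 to 173 CPM in tumors 1 to 6, with a median of 98.9. Ect2, which activates RhoA at the division plane, ran from 37.1 to 129.5 CPM in tumors 1 to 6, with a median of 53.7, and tumor 5 was its highest. By TMM, Anln was the member of this group in which tumors 7 to 9, at 17.7, 12.2 and 12.1 CPM, all lay above the controls, at 10.3, 9.60 and 10.3 CPM. With library totals tumor 7, at 307 of 17158731 counts, lay below control 1, at 312 of 12019924.

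In tumors 7 to 9, whose composition was like that of the controls, 0 of 36 members passed in either direction by edgeR's quasi-likelihood test with Benjamini-Hochberg adjustment over 36420 genes, where 0.0247% of genes were higher and 0.0247% lower. The unadjusted p was below 0.05 for 4 members, Incenp (higher), Ccnb1, Cdk1 and Aurka (lower), and for 3292 of all genes, and DESeq2 called 1 member higher and 0 lower. It called 0.81% of all genes higher. The members' median log2 fold change was 0.08, against -0.01 over all genes, and it turned to -0.68 with library totals, where the all-gene median was -0.71, to -0.88 on TPM and to -0.08 without tumor 7. Incenp had a log2 fold change of 1.504 (SE 0.36, adjusted p = 0.284 by edgeR and 0.00411 by DESeq2). Every one of tumors 7 to 9 lay above every control for Incenp, Birc5 and Anln, against 7.14% of all genes, and below for Ccnb2, Cdk1 and Aurka, against 7.59%, on TMM scaling of these 6 libraries. For Cdk1 this did not hold on the scaling of all 12 libraries, where tumor 9 stood at 4.26 CPM and control 3 at 4.25 CPM. Incenp nevertheless lay at only 1.04, 1.21 and 1.16 times the receptor genes' median per kilobase in controls 1 to 3 and at 3.28, 5.82 and 1.503 times in tumors 7 to 9. Mki67 had a log2 fold change of 0.98 (SE 0.68), which without tumor 7 was -0.03. On simulated counts 94% of 4-fold changes were recovered with 3 tumors and 3 controls, with 8 false calls. Those counts had the same dispersion for all genes, no difference in composition, and changes only in genes with ample counts. The simulation therefore cannot tell how many real changes of the members the test would miss here.

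Over all 9 tumors, 0 of 36 members passed by edgeR's quasi-likelihood test with Benjamini-Hochberg adjustment over 40484 genes, where 0% of genes were higher and 0.00494% lower. All 36 log2 fold changes lay above 0 by TMM, with a median of 3.07 against -0.45 over all genes, while 8 turned below 0 with library totals and 26 on TPM. The smallest adjusted p among the members was 0.128, and 34 members had an unadjusted p below 0.05, as had 7296 of all genes. DESeq2 called 27 members higher and 0 lower, and it called 9.96% of all genes higher. Every tumor lay above every control for Incenp, Birc5 and Anln, against 1.63% of all genes, and below every control for no member, against 3.1%, on TMM scaling. Over these tumors Mki67 was at least 1345 CPM in tumors 1 to 6 and at most 90.6 CPM in tumors 7 to 9.

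Within tumors 1 to 6 the members varied together. On log2(CPM + 1), scaled by TMM factors of these 6 libraries, the median Pearson r over the 630 pairs of members was 0.84, with 366 pairs above 0.8 and 12 below 0, as a description over 6 points that share library depth and composition. Of 6954 other protein-coding genes at 5 CPM or more, 29.9% had an r above 0.8 with the members' mean, as had 31 members with the mean of the other 35. When CPM was taken over protein-coding nuclear genes only, the median r over pairs was 0.69, 20 members and 7.58% of other genes lay above 0.8, and without tumor 5 the median was 0.71 by TMM and 0.55 on that scale.

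Tumor 5 was the highest of the 6 for 30 members, as it was for 48.3% of other genes, tumor 6 was the highest for 5 and tumor 3 for 1, Incenp. On protein-coding CPM tumor 5 was the highest for 27 members and for 28.0% of other genes. The members' median deviations from the mean of the 6 tumors were -0.55, -0.36, -0.07, -0.48, 1.14 and 0.33 on the log2 scale in tumors 1 to 6, against -0.37, -0.32, 0.08, -0.07, 0.45 and 0.25 for other genes. On protein-coding CPM they were -0.33, -0.17, -0.12, -0.40, 0.74 and 0.25, against -0.15, -0.14, 0.04, 0.02, 0.07 and 0.19. On both scales tumor 5 thus stood highest and tumor 4 lay below the mean. The lowest tumor was tumor 1 for 16 members and tumor 4 for 15. The members' median minus that of 38 DNA replication genes was 0.45 in tumor 5, 0.15 in tumor 6 and between -0.31 and -0.04 in tumors 1 to 4, a difference within each library that no scaling factor changes apart from the pseudocount of 1.

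**Figure D4:**
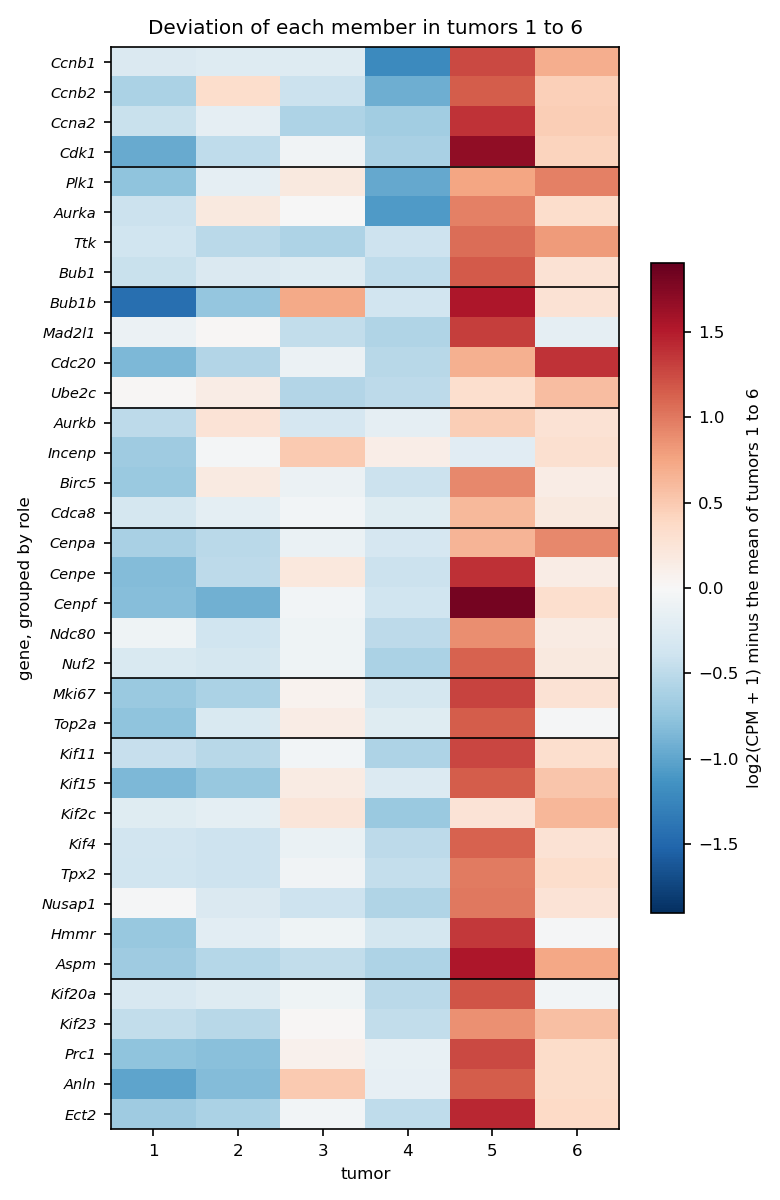
Deviation of each member (rows, grouped by role) in tumors 1 to 6 (columns) from its own mean over these 6 tumors, on log2(CPM + 1) with TMM scaling, red above and blue below. Tumor 5 was the highest column for 30 of 36 rows, also for 27 on protein-coding CPM, and Incenp, Kif2c and Ube2c departed from the common pattern.

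The member closest to the others was Cdca8, with r = 1.00 to the mean of the other 35 genes, and the farthest were Incenp at 0.13, Ube2c at 0.54, Kif2c at 0.70 and Aurkb at 0.75. Incenp was 125, 197, 309, 225, 134 and 205 CPM in tumors 1 to 6, highest in tumor 3, while tumor 5 was the next to lowest. Its deviations were -0.67, -0.04, 0.49, 0.12, -0.21 and 0.30 on the log2 scale. Spread differed as well: the SD of log2(CPM + 1) over the 6 tumors was 1.06 for Bub1b, 1.01 for Cenpf and 0.95 for Cdk1, and 0.35 for Cdca8, 0.39 for Aurkb and 0.41 for Incenp. Cdca8, Aurkb and Incenp are of the chromosomal passenger complex, whose median deviation in tumor 5 was 0.54, against 1.32 for the cyclins and Cdk1.

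The same was tested for 6 pairs that work in 1 complex, by two-sided exact permutation over the 720 pairings of 6 tumors with Benjamini-Hochberg adjustment over the 6 pairs. The test is against an r of 0, while the median r over all 630 pairs of members was 0.84, so a pair that passes is not thereby set apart from other pairs. Ndc80 and Nuf2 had r = 0.98 (exact p = 0.00278, adjusted 0.0167; rho 0.94, exact p = 0.0167), and 0.85 without tumors 4 and 5, the farthest from the median. Birc5 and Cdca8 had r = 0.91 (exact p = 0.0111, adjusted 0.0333; rho 0.83, exact p = 0.0583), and 0.55 without tumors 1 and 5, so that it rests in part on those tumors. Ccnb1 and Cdk1 had r = 0.86 (exact p = 0.0194, adjusted 0.0389; rho 0.89, exact p = 0.0333), and 0.80 without tumors 4 and 5. Bub1 and Bub1b, at r = 0.80 (rho 0.77; adjusted exact p = 0.0729 and 0.154, r = 0.55 without tumors 5 and 6), did not pass. Cdc20 and Mad2l1 had r = 0.37 (rho -0.03; adjusted exact p = 0.578 and 1). Aurkb and Incenp had r = 0.17 (rho 0.03; adjusted exact p = 0.743 and 1). No rho passed after adjustment, the lowest adjusted exact p being 0.1, and on protein-coding CPM Ndc80 and Nuf2 alone still passed by r, at 0.94 (adjusted exact p = 0.0333).

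The kind of transcript that took a gene's counts was read as well, because a share within a gene does not depend on the scaling of libraries. For 28 members the counts fell on transcripts of more than 1 annotated type, with at least 10 counts in each library, and the other 8 had all counts on protein-coding transcripts. In 13 of the 28 the protein-coding share was higher in each of tumors 1 to 6 than in all 6 other libraries, against 31.4% of 8161 genes, and in 2 it was lower in each, Cdk1 and Mad2l1, against 2.73%. The 95% Wilson interval of a single share was at most 16.5 percentage points on each side, and it covers counting error only. Kif23, a motor of the midzone, had 59.0% to 75.6% of its counts on protein-coding transcripts in tumors 1 to 6, against 3.61% to 8.63% in controls and 3.59% to 11.1% in tumors 7 to 9. The groups were apart as well for Anln, at 81.7% to 91.9% in tumors 1 to 6, against 29.3% to 43.0% in controls and 31.3% to 41.1% in tumors 7 to 9. For Ttk the share was 81.5% to 93.3% in tumors 1 to 6, against 25.1% to 29.6% in controls and 17.3% to 32.1% in tumors 7 to 9. Nuf2 had 88.1% to 92.4% in tumors 1 to 6, against 32.3% to 43.3% in controls and 31.7% to 46.0% in tumors 7 to 9. In the other direction, Cdk1 had 58.2% to 70.8% in tumors 1 to 6, against 77.9% to 89.3% in controls and 76.9% to 94.97% in tumors 7 to 9. Mad2l1 had 66.7% to 87.9% in tumors 1 to 6, against 97.2% to 99.1% in controls and 94.2% to 98.5% in tumors 7 to 9. Part of the other counts fell on transcripts annotated with a retained intron. Such counts were found for 24 members, and in 16 of them their share was lower in each of tumors 1 to 6 than in all 6 other libraries, against 38.1% of 6125 genes. In 2 it was higher in each, Cdk1 and Mad2l1, against 1.8%. Of the 13 members with a higher protein-coding share, 12 had a lower retained-intron share. For Kif23 the retained-intron share was 21.1% to 32.1% in tumors 1 to 6, against 69.8% to 78.5% in controls and 69.5% to 72.6% in tumors 7 to 9. For Nuf2 it was 7.62% to 11.9%, against 56.7% to 67.7% and 54.0% to 68.3%. For these genes the libraries with the high shares, the controls and tumors 7 to 9, are those in which nearly every receptor gene had a count, and the part of that background in the shares was not tested. Ccna2 had 22.4% to 59.0% of its counts on protein-coding transcripts in tumors 1 to 6, where a transcript annotated as a target of nonsense-mediated decay took 29.6% to 74.2% of its counts, against at most 0.544% in the controls. Cdca8 stayed at 15.7% to 38.5% in tumors 1 to 6, and a noncoding processed transcript of Cdca8 took 42.0% to 75.0% there. kallisto divides shared reads among transcripts, so single transcript shares are estimates.

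**Figure D5:**
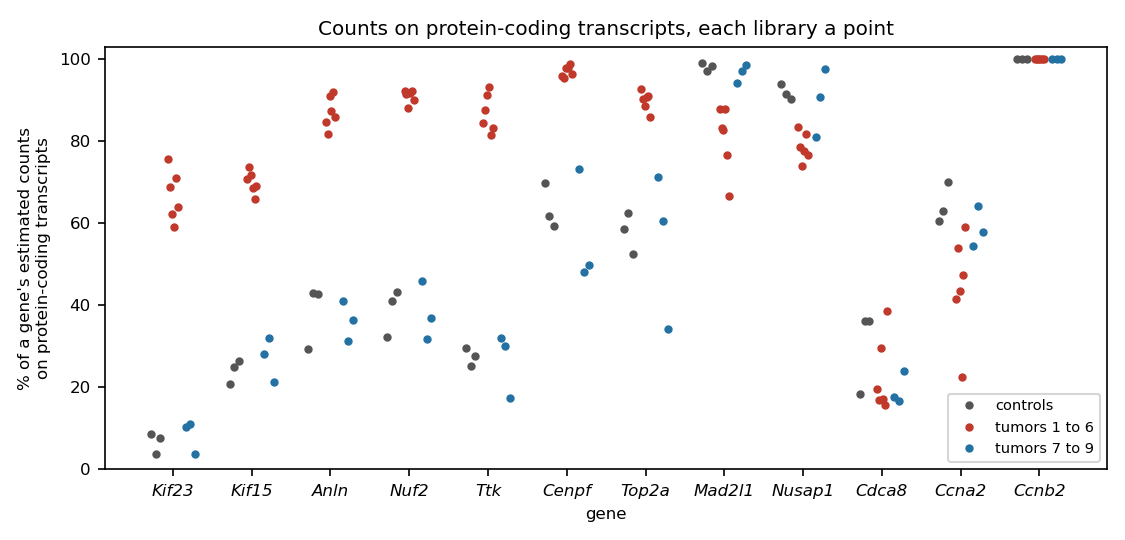
Percentage of a gene's estimated counts on protein-coding transcripts (vertical axis) for 12 members, each library a point, with controls in grey, tumors 1 to 6 in red and tumors 7 to 9 in blue. For Kif23 the points of tumors 1 to 6 lie between 59.0% and 75.6% and all others at or under 11.1%, while for Cdk1's partner gene Ccnb2 all points lie at 100%.

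Genes of the same processes outside the 36 were counted from 6 lists of 104 genes in all. In tumors 1 to 6, 91 of 104 were higher and 0 lower by edgeR's quasi-likelihood test with Benjamini-Hochberg adjustment, with a median log2 fold change of 2.77, while with library totals 26 were higher and 10 lower and on TPM 4 higher and 27 lower. Of all 38522 genes, 19.6% were higher by TMM. With library totals 4.29% were higher and 28807 lower, and on TPM 1.52% higher and 32772 lower. In tumors 7 to 9, 0 of 104 passed, 8 had an unadjusted p below 0.05 and the median was 0.05. By TMM all 14 genes of the entry switch were higher in tumors 1 to 6, while with library totals 1 was higher and 0 lower and on TPM 0 were higher and 2 lower, with 13 below 0. Among them Plk4, the kinase that duplicates centrioles, went from 4.61 to 5.94 CPM in the controls to 37.3 to 88.8 CPM in tumors 1 to 6, with its sign turned on TPM to -0.07. All 14 genes of transcriptional control were higher by TMM, while with library totals 3 were higher and on TPM 1 was higher and 4 lower. Nfya, a subunit of NF-Y, went from 4.16 to 5.01 CPM in the controls to 51.4 to 114 CPM in tumors 1 to 6. Of the anaphase-promoting complex and securin 13 of 16 were higher by TMM, while with library totals 4 were higher and 3 lower and on TPM 6 were lower. Anapc5, a subunit of the complex, went from 6.24 to 7.00 CPM in the controls to 133 to 251 CPM in tumors 1 to 6.

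All 12 genes of condensin and of the guards of cohesin were higher by TMM, 7 with library totals, and on TPM 1 was higher and 1 lower. The condensin gene Ncapd2 went from 6.11 to 7.498 CPM in the controls to 154 to 352 CPM in tumors 1 to 6. Its partner Smc4 went from 8.92 to 87.2 CPM in the controls to 478 to 1807 CPM in tumors 1 to 6. Of 24 kinetochore genes 15 were higher by TMM, while with library totals 3 were higher and 7 lower and on TPM 12 were lower. Knl1, a scaffold of the outer kinetochore, went from 6.41 to 12.3 CPM in the controls to 126 to 430.2 CPM in tumors 1 to 6. Cenpc1, of the inner kinetochore, stood at 56.0 to 65.0 CPM in the controls and 91.3 to 147 CPM in tumors 1 to 6 and did not pass (adjusted p = 0.0945 by edgeR). Of 24 spindle and cytokinesis genes 23 were higher by TMM, 8 with library totals, and on TPM 2 were higher and 2 lower. The exception by TMM was Psrc1, at 2.80 to 71.6 CPM in tumors 1 to 6 and 4.54 to 5.98 in the controls. Of 38 DNA replication genes 37 were higher by TMM, with a median of 3.36, next to the members' 3.34, while on TPM 5 were higher and 6 lower.

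Other genes moved with this result. Of 20 T cell genes 18 were higher in tumors 1 to 6 by TMM, 12 with library totals and 8 on TPM, each of the latter with 1 lower. They summed to 1998 to 2848 CPM in tumors 1 to 6, against 74.6 to 155 in controls and 97.3 to 186 in tumors 7 to 9. Actb, the actin gene of every cell, went from 6.09 to 19.6 CPM in the controls to 722 to 1218 CPM in tumors 1 to 6. The 79 ribosomal protein genes summed to 9455 to 17928 CPM in tumors 1 to 6, against 419 to 806 in controls and 236 to 479 in tumors 7 to 9.

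Markers of other cells were counted in tumors 1 to 6 by edgeR with TMM. Of 10 macrophage genes 2 were higher and 0 lower, and they summed to 24.2 to 183 CPM in tumors 1 to 6, against 19.1 to 23.0 in controls and 18.9 to 21.99 in tumors 7 to 9. Of 6 endothelial genes 1 was higher and 3 lower. Their sums were 178 to 1154 CPM in tumors 1 to 6, against 49.6 to 92.7 in controls and 95.9 to 161 in tumors 7 to 9. Pecam1 alone stood at 175 to 1151 CPM in tumors 1 to 6, at 58.7, 11.7 and 12.7 CPM in controls 1 to 3 and at 129, 119 and 60.9 CPM in tumors 7 to 9. Of 7 fibroblast genes 2 were higher and 1 lower, with sums of 55.0 to 270.2 CPM in tumors 1 to 6, against 39.0 to 47.8 in controls and 51.9 to 57.2 in tumors 7 to 9. Neutrophil genes were 1 of 8 higher and 0 lower, with sums of 1.76 to 303 CPM in tumors 1 to 6, against 10.7 to 13.6 in controls and 12.6 to 14.0 in tumors 7 to 9. Of 8 B cell genes 0 were higher and 1 lower, with sums of 5.13 to 27.04 CPM in tumors 1 to 6, against 32.5 to 37.6 in controls and 34.2 to 46.2 in tumors 7 to 9. Dendritic cell genes were 1 of 8 higher and 0 lower, with sums of 14.2 to 67.7 CPM in tumors 1 to 6, against 32.0 to 34.1 in controls and 33.9 to 44.9 in tumors 7 to 9. Thymic epithelial genes were 1 of 8 higher and 2 lower, with sums of 30.3 to 55.4 CPM in tumors 1 to 6, against 30.4 to 40.8 in controls and 37.0 to 38.2 in tumors 7 to 9. Erythroid genes were 0 of 8 higher and 1 lower, with sums of 3.02 to 12.2 CPM in tumors 1 to 6, against 8.36 to 20.4 in controls and 6.94 to 9.08 in tumors 7 to 9. With library totals and on TPM more genes of every one of these lists were lower than higher, as over all genes tested. No marker of these lists was at 0 in all libraries of a group. The part of these cells and of library composition in the members' levels was not tested.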

How the data were processed

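The 12 libraries were made from polyadenylated RNA and read from both ends, 75 bases each, per the labels' protocols. The authors deposited kallisto estimated counts per transcript, with transcript lengths, per the file headers, and TPM values in the same files. The submitters' processing notes name FastQC, kallisto and mm10, and for none of these is a version given in the sources used here. The 36 members and all gene lists were chosen with earlier results of these data known.

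Estimated counts were summed by symbol over 128622 transcripts and rounded. Tumors and controls were compared with edgeR 4.0.16 (quasi-likelihood F test, TMM factors, filterByExpr by group, Benjamini-Hochberg adjusted p below 0.05) in R 4.3.3, with DESeq2 1.42.0 and limma 3.58.1 on log2(TPM + 1), a scale that understates changes of low genes, as alternatives. Tumors 1 to 6 and 7 to 9 were separated by library composition, not by the labels. CPM per kilobase divides counts by effective length. The test was tried on simulated counts with 200 genes changed 4-fold, of which 200, 197 and 188 were recovered for 9, 6 and 3 tumors against 3 controls. Before scaling, 1 count was 0.0288 to 0.123 CPM, and the 36 members together held 6589 to 262771 counts per library. Named genes were Il7r, all members, and from each list of other mitosis genes the most abundant 2 per length and the 1 with the widest spread over tumors 1 to 6, besides the 2 most abundant replication genes, Thy1, Cd3e, Actb and the highest marker of each other cell type. The widest spread was sought among genes at a mean of 5 CPM or more.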

Additional observations from a re-analysis of the deposited data

Results flagged for a closer look

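In 5 of 37 tests, over the 36 members and Il7r, the highest of the 9 tumors stood farther from the next, as a share of their range, than Dixon's 95% critical value for 9 samples allows, and each time it was tumor 5. Chance gives about 1 such case in 20 groups drawn from a single normal distribution. The 9 tumors are not such a group, since tumors 7 to 9 lay below tumors 1 to 6, for Cdk1 at 2.89 to 4.26 against 19.6 to 104 CPM. The genes also share the same library, so that rate does not apply here. Cdk1 stood at 104 CPM in tumor 5, with the next tumor at 44.9. Mad2l1 stood at 98.8 CPM, with the next at 51.1. Cenpf stood at 802 CPM, with the next at 305. Hmmr stood at 214 CPM, with the next at 111. Ect2 stood at 129.5 CPM, with the next at 66.1. Tumor 5 also had the deepest library, with 34769946 estimated counts, and the highest share of ribosomal protein counts, 1.29%. The part of these in the levels of tumor 5 was not tested.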

How the results depend on the processing

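Of 744 recomputed single-gene values over the alternatives, 663 kept their direction and their side of the threshold, 36 lost the threshold, 8 gained it and 37 changed sign. Fits with a library left out are part of that total. For tumors 1 to 6, over the members and Il7r, library totals left 14 the same, while 16 lost the threshold and 7 changed sign. By limma on TPM 5 stayed the same, 12 lost the threshold and 20 changed sign. For tumors 1 to 6, the count of 35 higher members stood at 33 to 35 when a library was left out and at 34 with DESeq2 or its size factors in edgeR. It was 13, with 1 lower, with library totals, where 28807 of all 38522 genes were lower. By limma on TPM it was 4, with 3 lower, where 32772 of all genes were lower. The members' median of 3.34 was 1.21 with library totals, 2.50 among protein-coding genes and -0.0541 on TPM. For all 9 tumors the count of 0 higher became 27 with DESeq2 and 1, with 2 lower, on TPM, and the median of 3.07 became 0.82 with library totals, -0.35 on TPM and 1.33 with receptor gene density as a covariate. Of all 40484 genes tested there, 9.96% were higher with DESeq2, and 32091 were lower on TPM. For tumors 7 to 9 DESeq2 called 1 member higher, and the median of 0.08 became -0.68 with library totals and -0.88 on TPM, and ran from -0.0835 to 0.164 when a library was left out, with the sign turned without tumor 7. Leaving out 1 library left the counts for all 9 tumors and for tumors 7 to 9 at 0.

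Log2 fold changes that changed sign in tumors 1 to 6 on TPM were Ccnb1 -0.68, Ccna2 -0.0835, Aurka -0.73, Ttk -1.05, Bub1 -0.43, Mad2l1 -0.26, Cdc20 -0.25, Ube2c -2.03, Cenpa -0.75, Cenpe -0.0328, Cenpf -0.40, Nuf2 -0.22, Kif2c -1.96, Tpx2 -0.0563, Hmmr -1.17, Aspm -0.35, Kif23 -0.50, Prc1 -0.0518, Anln -0.23 and Ect2 -0.17. With library totals they were Ttk -0.0398, Mad2l1 -0.91, Ube2c -1.70, Birc5 -0.25, Cenpa -0.50, Kif2c -0.47 and Hmmr -0.22, and among protein-coding genes Ube2c -0.33. For all 9 tumors Ube2c was -1.35 with library totals, -0.0639 among protein-coding genes and -1.73 on TPM. For tumors 7 to 9, Mki67 -0.0899 and Bub1b -0.50 changed sign with library totals and Mki67 -0.35 and Bub1b -1.002 on TPM. Left-out libraries took Mki67 there from -0.0258 to 1.72 and Bub1b from -0.11 to 0.77, the low ends without tumor 7.

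Over tumors 1 to 6 the median r over pairs of members ran from 0.71 to 0.88 when a tumor was left out. The median deviation of tumor 4 was -1.03 with library totals and -0.88 on TPM, that of tumor 6 was 1.02 and 1.00, and that of tumor 3 was -0.43 on TPM and ran from -0.18 to 0.15 when another tumor was left out. On protein-coding CPM r was 0.77 for Ccnb1 and Cdk1 (adjusted exact permutation p = 0.169) and 0.84 for Birc5 and Cdca8 (adjusted exact permutation p = 0.142). Without the 2 farthest tumors r was 0.85 for Ndc80 and Nuf2, 0.80 for Ccnb1 and Cdk1, 0.55 for Birc5 and Cdca8, -0.54 for Aurkb and Incenp and -0.55 for Cdc20 and Mad2l1, over 4 tumors and with no test. The protein-coding scale without tumor 5 was chosen after seeing the data.

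With the replicate number as a block, 35 members were higher in the fit of all 9 tumors, against 20.6% of all genes. In the fit of tumors 1 to 6 it was 35, against 18.9%, and the median was 2.78. Only numbers 1 to 3 have both a control and a tumor. Both block fits therefore compare tumors 1 to 3 alone with the controls, and the other tumors add nothing to the difference. The labels tie the numbers to no shared source, and deviations of same-numbered libraries correlated at 0.0656, 0.149 and -0.139, so the samples share only a number. Among the controls only control 2 correlated best with the tumor of its own number. No block could be fitted for tumors 7 to 9, which share no number with the controls. Where not said otherwise, the cause of a change was not tested. After TMM scaling 1 count stood for 0.0331 to 0.0403 CPM in the controls and for 0.0334 to 0.136 CPM in the tumors. In the controls all but 3 or 4 members lay under the 95th percentile of the receptor genes, which limits what their levels there can show.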

Other observations

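Genes outside the 36 that varied over tumors 1 to 6 in another way than the members were read from the same lists, as values. Mad1l1, a checkpoint protein, ran from 44.5 to 271 CPM, with r = 0.0871 to the members' mean over 6 tumors. It had the widest spread among the 21 of 24 kinetochore genes at a mean of 5 CPM or more. Its values were 44.5, 51.7, 271, 145, 67.9 and 61.6 CPM in tumors 1 to 6. Psrc1, a spindle protein, was 15.7, 6.399, 2.80, 11.9, 8.59 and 71.6 CPM, and in tumors 1 to 6 it ran both below and above the controls. Cit, the citron kinase of cytokinesis, was 69.9, 85.5, 227, 168, 96.6 and 129.9 CPM, with r = 0.28. Knl1, at r = 0.99, and Anapc5, at 0.98, followed the members. Il7r, the induced gene, had r = -0.10 with the members' mean over the same 6 tumors, as a description with no test.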
